A study of Mus musculus with 6 samples.

Results

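Calcium that enters a neuron through synaptic receptors and channels binds calmodulin, which then switches on kinases and a phosphatase with opposite effects on synapses. Ca2+/calmodulin-dependent kinase II (CaMKII) is a holoenzyme of alpha and beta subunits that strengthens active synapses, calcineurin is the calmodulin-activated phosphatase that weakens them, neurogranin holds calmodulin near the membrane when calcium is low, and plasma membrane calcium pumps return calcium to its resting level and are themselves activated by calmodulin. These proteins are abundant in the excitatory neurons of the hippocampus, and CaMKII in the CA1 is a textbook requirement for long-term potentiation. The data on 5 genes of this system are described here: Camk2a and Camk2b (the alpha and beta subunits of CaMKII), Ppp3ca (the alpha isoform of the catalytic subunit of calcineurin), Nrgn (neurogranin) and Atp2b1 (plasma membrane calcium pump 1). They were chosen by function out of 7507 genes with a count, with earlier results of these data known. Together they held 574 of 45935 gene-assigned molecules.

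The RNA came from BALI (Barcoding by Activated Linkage of Indexes), in which light uncages a ligation root on molecules inside chosen areas of a tissue section so that each area receives its own DNA barcode. Coronal sections of 10 µm were cut from fresh frozen brains of adult mice, RNA was reverse transcribed in situ from poly-A tails, and in each of 3 sections the dentate gyrus (DG, described in the labels as its granular layer) and the CA1 were illuminated and ligated in turn with an index of their own, which gave 3 DG libraries and 3 CA1 libraries, paired by section. No genotype, strain or treatment set the groups apart, since both areas lay in the same untreated section. The labels give an age of 12 weeks, whereas the tissue protocol gives 8 to 12 months for the adult animals, and no label says whether the 3 sections came from separate mice, so that p-values measure the spread between these sections. A library of an area holds all cells and processes under the light, so fewer cells of a type and less RNA per cell cannot be told apart.

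Molecules were counted by unique molecular identifier (UMI), and the share of a gene is its UMIs over all gene-assigned UMIs of the library. Depth came to 17999, 4572 and 6298 UMIs for the DG of sections 1, 2 and 3 against 9357, 2844 and 4865 for the CA1, so that the DG was 1.92, 1.61 and 1.29 times deeper. A gene with 0 UMIs could still hold up to 3 UMIs by counting error, which is 0.0167% to 0.105% of a library, and these intervals and limits cover counting error only. The markers of the areas were close to that limit. Of 8 markers of DG granule cells, 3 were listed, with 7 UMIs in all DG libraries and 3 in all CA1 libraries, while Prox1 and C1ql2, which define these cells, were outside the 7507 genes. Synpr, a DG marker, had 5, 0 and 1 UMIs in the DG of sections 1, 2 and 3 against 0 in each CA1 library, whereas Calb1 had 0 in the DG and 2 in the CA1, and Stxbp6 had 1 in each area. All 8 markers of CA1 pyramidal cells were listed, with 8 UMIs in the DG and 15 in the CA1. Wfs1 and Neurod6 had 0 UMIs in the DG and 2 each in the CA1, and Mpped1 had 1 and 3, whereas Pou3f1 had 6 and 4. The list had shares per library from 0.0222% to 0.0437% in the DG and from 0.0352% to 0.118% in the CA1. Summed over libraries, both lists had more UMIs in the area they mark, with the DG the deeper one, and there were so few that the check of the labels is weak. The excess of the DG list came from Synpr alone. The study itself showed Synpr as a DG gene and Wfs1, Neurod6 and Mpped1 as CA1 genes from these libraries, so their directions are no independent check. Among other cells, the oligodendrocyte list (7 of 8 genes listed) held 0.503% to 0.80% of the UMIs in the DG and 0.668% to 0.994% in the CA1, the astrocyte list (6 of 8) 0.206% to 0.365% and 0.278% to 0.316%, and the interneuron list (6 of 8) 0.0219% to 0.0635% and 0% to 0.0822%, while the microglia list (2 of 8) had 3 UMIs in total.

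All 5 genes were detected in all 6 libraries, and together they took 0.969% to 1.31% of the UMIs in the DG and 1.13% to 1.51% in the CA1. None differed between the areas by the test across genes, in which 43 genes had enough UMIs to be tested and 0 (0.00%) passed an adjusted p of 0.05 by edgeR's quasi-likelihood test, with 3 at an unadjusted p under 0.05, while DESeq2 called 0 and had 0 at that unadjusted level. Camk2a, Camk2b, Ppp3ca and Atp2b1 were among the 43 genes and Nrgn was not. By direction alone, the DG had the larger share of Camk2b in 3 of 3 sections, as were 7.87% of the 394 genes with a UMI in every library, and the shares of Camk2a and Atp2b1 were lower in the DG in 3 of 3, as were 20.1% of those genes. No member had shares without overlap between the DG and the CA1, against 8.63% of the 394 genes. The median log2 difference of DG minus CA1 was -0.17 over the 5 members and -0.19 over the 394 genes. Requiring a UMI in every library can tilt the 394 genes toward higher CA1 shares, since 1 UMI is a larger share of a shallower library. How far it did so was not tested.

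**Figure D1:**
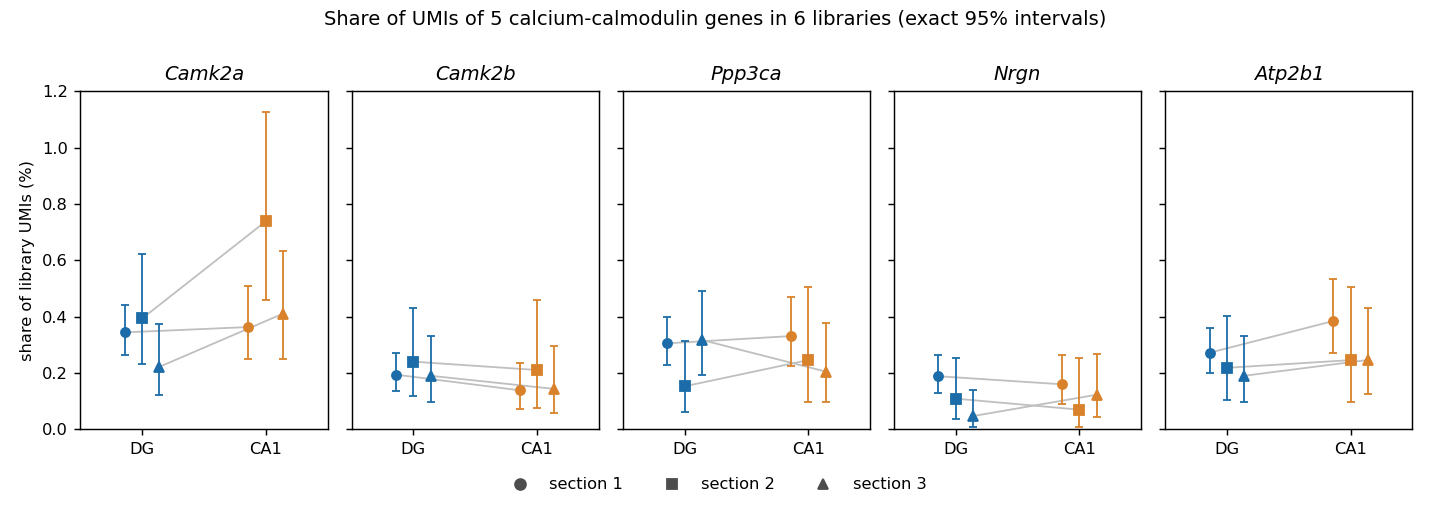
Share of library UMIs in percent (vertical axis, starting at 0) of the 5 genes in the DG (blue) and the CA1 (orange), with exact 95% intervals (Clopper-Pearson, counting error only) and grey lines that join the libraries of a section. Camk2a in the CA1 of section 2 is the highest point at 0.738%, Camk2b lies higher in the DG and Atp2b1 higher in the CA1 in all 3 sections, and the DG and CA1 values overlap for every gene.

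The kinase was measured through both of its main subunits. Camk2a, on chromosome 18 (60925307 to 60988152, plus strand, GRCm38), encodes the alpha subunit, the more abundant one in the forebrain, whose RNA also travels into dendrites. In the DG of sections 1, 2 and 3 it had 62, 18 and 14 UMIs, or 0.344% (exact 95% interval 0.264 to 0.441), 0.394% (0.233 to 0.622) and 0.222% (0.122 to 0.373) of the library. In the CA1 it had 34, 21 and 20 UMIs, or 0.363% (0.252 to 0.507), 0.738% (0.458 to 1.13) and 0.411% (0.251 to 0.634). The CA1 was the higher area in each section, by little in section 1 and by more in sections 2 and 3, but the DG of section 2 lay above the CA1 of section 1. The mean share was 0.320% ± 0.0883 in the DG against 0.504% ± 0.204 in the CA1 (SD, n = 3 each). On the log2 scale the DG minus the CA1 was -0.62 ± 0.47 (SD over 3 sections), a 1.54-fold higher share in the CA1, with a two-sided exact permutation p of 0.2, where 3 against 3 libraries cannot give less than 0.1. The edgeR estimate was -0.40 (SE 0.29, adjusted p = 0.650). By counting error alone, the exact Mantel-Haenszel test over the 3 sections gave an odds ratio of 0.735 (0.536 to 1.01) and p = 0.0545, and Fisher's exact test p = 0.830, 0.0490 and 0.0836 in sections 1, 2 and 3. These tests compare the libraries, not the areas, and section 2 is the 1 of 18 such tests within a section (5 genes and a ratio, 3 sections each) with p under 0.05, without adjustment. Without section 1 the log2 difference of Camk2a was -0.90, and without the CA1 library of section 2 it was -0.31.

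Camk2b, on chromosome 11 (5969629 to 6066357, minus strand), encodes the beta subunit, which binds actin and anchors the holoenzyme in spines. It had 35, 11 and 12 UMIs in the DG of sections 1, 2 and 3, or 0.194% (0.135 to 0.270), 0.241% (0.120 to 0.430) and 0.191% (0.0985 to 0.333). In the CA1 it had 13, 6 and 7 UMIs, or 0.139% (0.0740 to 0.237), 0.211% (0.0775 to 0.459) and 0.144% (0.0579 to 0.296). The DG was higher within every section, and the CA1 of section 2 still exceeded the DG of sections 1 and 3. The means were 0.209% ± 0.0278 in the DG against 0.165% ± 0.0402 in the CA1 (SD, n = 3 each), a log2 difference of 0.36 ± 0.15 (SD over 3 sections) or 1.28-fold, with an exact permutation p of 0.3. Its SD between sections was the smallest of the 5 genes, followed by 0.17 for Atp2b1. The edgeR estimate was 0.51 (SE 0.38, adjusted p = 0.650), and the Mantel-Haenszel odds ratio 1.32 (0.818 to 2.19, exact p = 0.258). The study itself showed Camk2b as a DG gene from these libraries, and described its genes of both areas as matching public spatial RNA and single-cell chromatin data. The direction of Camk2b here comes from the same libraries and is therefore not independent evidence. Nor is that of the Camk2a to Camk2b ratio, which contains Camk2b.

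The subunits were also compared by the ratio of Camk2a to Camk2b UMIs, which needs no library total and so does not depend on the depth normalisation. A difference in this ratio does not say which of the genes differs, or in which direction. The ratio was 1.77 (exact 95% interval 1.15 to 2.76), 1.64 (0.732 to 3.83) and 1.17 (0.501 to 2.76) in the DG of sections 1, 2 and 3. In the CA1 it was 2.62 (1.35 to 5.40), 3.50 (1.37 to 10.6) and 2.86 (1.16 to 8.00). All 3 CA1 values lay above all 3 DG values, although the intervals of single libraries overlapped in each section. The mean ratio was 1.52 ± 0.317 in the DG against 2.99 ± 0.457 in the CA1 (SD, n = 3 each). The log2 difference was -0.98 ± 0.38 (SD over 3 sections), a ratio 1.98-fold higher in the CA1, and its exact permutation p of 0.1 is the smallest that 3 against 3 can give. Summed over sections, 94 Camk2a against 58 Camk2b UMIs in the DG gave 1.62 (1.16 to 2.29), and 75 against 26 in the CA1 gave 2.88 (1.82 to 4.70). Stratified by section, the ratio was 1.80-fold higher in the CA1 (exact Mantel-Haenszel interval 0.998 to 3.31, p = 0.0397), an interval that reaches 1 because it is built separately on each side, and Fisher's exact test gave p = 0.351, 0.252 and 0.158 within sections 1, 2 and 3.

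A lack of overlap of this kind was common in these libraries. Of the 10 ratios that the 5 members form, 1 separated the areas, this one, and among all 903 ratios of the 43 tested genes 10.2% did. When all libraries were thinned to 2844 UMIs, the depth of the shallowest, the Camk2a to Camk2b ratios did not overlap in 7 of 20 draws. Expressed per kilobase of exon, the ratio was 1.19 ± 0.248 in the DG against 2.34 ± 0.358 in the CA1 (SD, n = 3 each). That scaling is a constant factor, so it leaves the fold difference between the areas unchanged, and the design gives it no clear basis for UMIs. The transcripts of the subunit genes are distinct enough to count apart, with 8 shared 30-base words among 7471 in Camk2a and 9153 in Camk2b. No gene on the other strand overlaps any of the 5 members, which matters because the counting ignored the strand.

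**Figure D2:**
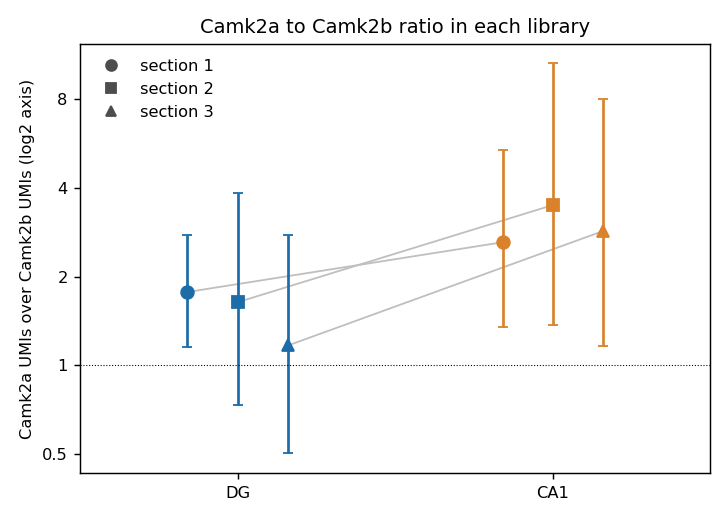
Camk2a UMIs over Camk2b UMIs (vertical axis, log2 scale) in each library, with exact 95% intervals, the DG in blue, the CA1 in orange and grey lines within a section. The DG points lie between 1.17 and 1.77 and the CA1 points between 2.62 and 3.50, and the intervals of the areas overlap in each section.

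The other subunits of CaMKII were near the detection limit. Camk2d (delta) had 2 UMIs, both in the DG, and Camk2g (gamma) had 9 UMIs, so Camk2a made up 169 of 264 CaMKII UMIs (64.0%). Its part of the CaMKII UMIs was 62.0%, 56.3% and 48.3% in the DG of sections 1, 2 and 3 and 70.8%, 75.0% and 74.1% in the CA1, values that rest on the same Camk2a and Camk2b counts as the ratio. The whole family took 0.572% ± 0.121 (SD, n = 3) of the UMIs in the DG against 0.684% ± 0.261 (SD, n = 3) in the CA1, which overlap. Camk2n1, an inhibitor protein that binds active CaMKII, had 19, 7 and 13 UMIs in the DG against 13, 1 and 4 in the CA1, or 0.155% ± 0.0505 and 0.0854% ± 0.0520 (SD, n = 3). Its share was lower in the DG in section 1 (0.106% against 0.139%) and higher in sections 2 and 3, and the areas overlapped. Camk2a and Camk2b together had between 2.00 and 5.11 UMIs per Camk2n1 UMI in the DG and between 3.62 and 27.0 in the CA1, where the highest value rests on the single Camk2n1 UMI of section 2.

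On the phosphatase side, Ppp3ca lies on chromosome 3 (136669714 to 136937727, plus strand) and encodes the main neuronal catalytic subunit of calcineurin. It had 55, 7 and 20 UMIs in the DG of sections 1, 2 and 3, or 0.306% (0.230 to 0.398), 0.153% (0.0616 to 0.315) and 0.318% (0.194 to 0.490). In the CA1 it had 31, 7 and 10 UMIs, or 0.331% (0.225 to 0.470), 0.246% (0.0990 to 0.506) and 0.206% (0.0986 to 0.378). The DG was lower in sections 1 and 2 and higher in section 3, and the lowest and highest DG values enclosed most of the CA1 range. The mean shares were 0.259% ± 0.0917 and 0.261% ± 0.0642 (SD, n = 3), a log2 difference of -0.06 ± 0.66 (SD over 3 sections) with an exact permutation p of 0.8. The interval of the Mantel-Haenszel odds ratio of 0.995 ran from 0.687 to 1.46 (exact p = 1). It covers counting error in these libraries and not the spread between sections, so differences of that size or larger in either direction could go undetected. The edgeR estimate was 0.13 (SE 0.34, adjusted p = 0.910), of the other sign than the difference in shares. Ppp3ca held 130 of the 146 UMIs of calcineurin catalytic genes (89.0%). Its closest isoform, Ppp3cb, had 5, 0 and 2 UMIs in the DG against 0, 1 and 2 in the CA1, and Ppp3r1, the regulatory subunit, had 8 UMIs in total.

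Nrgn, on chromosome 9 (37544493 to 37552745, minus strand), encodes neurogranin, a small postsynaptic protein that binds calmodulin in the absence of calcium. It was the least counted of the members, with 34, 5 and 3 UMIs in the DG, or 0.189% (0.131 to 0.264), 0.109% (0.0355 to 0.255) and 0.0476% (0.00982 to 0.139). In the CA1 it had 15, 2 and 6 UMIs, or 0.160% (0.0897 to 0.264), 0.0703% (0.00852 to 0.254) and 0.123% (0.0453 to 0.268). Both the highest and the lowest share were in the DG, and they stood 3.97-fold apart. The means were 0.115% ± 0.0708 in the DG against 0.118% ± 0.0452 (SD, n = 3) in the CA1. The log2 difference of -0.17 ± 1.06 (SD over 3 sections) had the widest spread of the 5 genes, with an exact permutation p of 0.9, and it was positive in sections 1 and 2 and negative in section 3. Nrgn had too few UMIs for the edgeR filter, and a fit without the filter gave 0.25 (SE 0.59, adjusted p = 0.878). That sign is opposite to the difference in shares, but the median over all 7507 genes in that fit was 0.46, above the value of Nrgn. The Mantel-Haenszel odds ratio was 1.03 (0.601 to 1.79, exact p = 1).

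Atp2b1, on chromosome 10 (98914630 to 99026143, plus strand), encodes the most widely expressed plasma membrane calcium pump. It had 49, 10 and 12 UMIs in the DG, or 0.272% (0.201 to 0.360), 0.219% (0.105 to 0.402) and 0.191% (0.0985 to 0.333). In the CA1 it had 36, 7 and 12 UMIs, or 0.385% (0.270 to 0.532), 0.246% (0.0990 to 0.506) and 0.247% (0.128 to 0.430). The CA1 was higher in all 3 sections, and the DG of section 1 exceeded the CA1 of sections 2 and 3. The means were 0.227% ± 0.0415 and 0.293% ± 0.0799 (SD, n = 3), a log2 difference of -0.35 ± 0.17 (SD over 3 sections) or a 1.27-fold higher share in the CA1, with an exact permutation p of 0.3. The Mantel-Haenszel odds ratio was 0.742 (0.513 to 1.08, exact p = 0.114). The edgeR estimate was -0.27 (SE 0.33, adjusted p = 0.875) and became 0.17 without the CA1 library of section 1. Atp2b1 held 126 of the 190 UMIs of the 4 plasma membrane pumps (66.3%), with 38 UMIs in Atp2b2, 15 in Atp2b3 and 11 in Atp2b4.

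**Figure D3:**
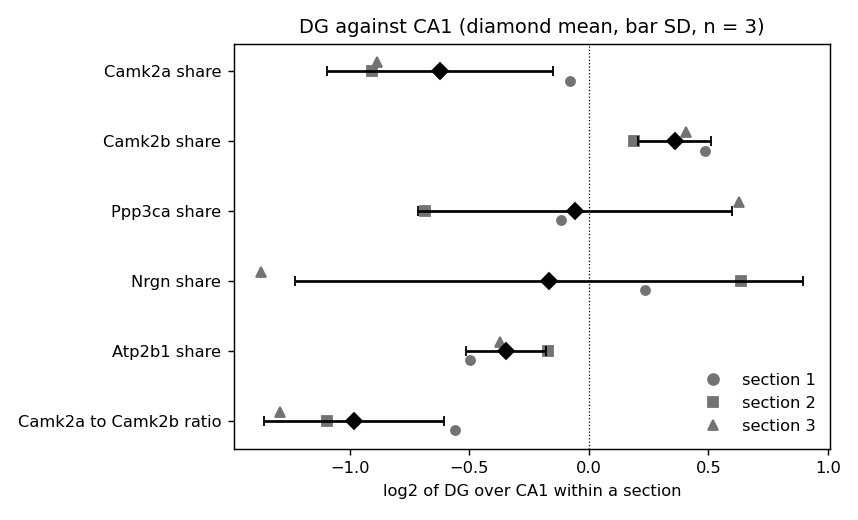
Log2 of the DG over the CA1 within each section (horizontal axis) for the shares of the 5 genes and for the Camk2a to Camk2b ratio, with the mean (diamond) and the SD over 3 sections (bar). Camk2a, Atp2b1 and the ratio lie below 0 and Camk2b above 0 in all 3 sections, whereas Ppp3ca and Nrgn lie on both sides.

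Scaling moved the level of all differences but left these directions in place apart from that of Ppp3ca. TMM normalisation, against library totals, moved the median log2 difference of the 43 tested genes from -0.14 to -0.02. The edgeR estimates with library totals were -0.52 for Camk2a, 0.39 for Camk2b, 0.0032 for Ppp3ca and -0.39 for Atp2b1. Measured from the median under each scaling, Camk2a and Atp2b1 were below the tested genes as a group and Camk2b was above them, none past the threshold.

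UMIs of different genes were also scaled per kilobase of merged RefSeq exons, as UMIs per 10000 library UMIs per kilobase over the 6 libraries. Nrgn, whose exons span 1.293 kb, had the highest level on this scale, 9.02 ± 4.11 (SD, n = 6), followed by Camk2a with 7.69 ± 3.23, Ppp3ca with 5.36 ± 1.46, Camk2b with 4.45 ± 0.936 and Atp2b1 with 3.49 ± 0.904, whose exons span 7.436 kb. Each gene was above the next in this order in 4, 4, 5 and 5 of 6 libraries, and for none of the 4 neighbouring pairs was the mean difference larger than its SD over libraries. The paper puts the ligation root on the reverse transcription primer at the poly-A tail and the UMI in the last index. By that design a cDNA receives its UMI at that end whatever its length. The scale per kilobase then favours genes with short exons and should not be read as transcript levels. By share of UMIs the order differed, with Camk2a highest (mean 0.412% over the 6 libraries) and Nrgn lowest (0.117%). How far UMIs scale with transcript length here was not tested.

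For each member, the genes whose shares varied most like its own over the 6 libraries were found among the genes that passed the edgeR filter. These correlations describe 6 libraries that share depth and section, and carry no test. Camk2a varied like the noncoding RNA Snhg11 (Pearson's r = 0.861). Camk2b was closest to Map1b, a neuronal microtubule-binding protein (0.848), and to the transcription factor Mef2c (0.724), and Nrgn to the AMPA receptor subunit Gria1 (0.927) and the ribosomal protein gene Rplp1 (0.859). Ppp3ca was closest to Mbp, a myelin protein of oligodendrocytes (0.891), and to Pabpn1 (0.749), and Atp2b1 to the ferritin gene Fth1 (0.949). Median correlations with all genes compared lay between -0.11 and 0.05. Mbp had 66, 4 and 17 UMIs in the DG against 38, 7 and 12 in the CA1, the highest share being in the CA1 of section 1 and the lowest in the DG of section 2. The summed shares of the oligodendrocyte list are given above. The part of oligodendrocyte RNA in the values of Ppp3ca and Atp2b1 was not tested.

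Beyond the 5 members, 72 further genes of the calcium-calmodulin system were examined in 7 lists, of which 59 were listed, 28 had at least 10 UMIs and 15 had a UMI in every library. Of these 15, 0 were higher and 2, Camkv and Atp2a2, were lower in the DG in 3 of 3 sections, and 0 had shares without overlap, against the 7.87%, 20.1% and 8.63% of all 394 genes given above. Their median log2 difference was -0.09.

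Calmodulin is the shared calcium sensor of all these enzymes. Calm2, which encodes it, had 24, 2 and 7 UMIs in the DG against 8, 4 and 2 in the CA1, and Calm3, which encodes the same protein, had 8, 6 and 4 UMIs in the DG against 8, 1 and 1. The DG and CA1 shares overlapped for both. Of the other calmodulin-binding proteins in that list, the growth cone protein Basp1 had 16, 4 and 6 UMIs in the DG against 5, 1 and 7 in the CA1, while Camta2, Pcp4, Camta1 and Marcks had 18, 16, 16 and 15 UMIs in total.

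Among further kinases, the list of 16 CaM kinases and inhibitors took 0.826% to 1.07% of the UMIs in the DG and 0.855% to 1.34% in the CA1, most of it from Camk2a and Camk2b. Dapk1, a calmodulin-regulated death-associated kinase, had 10, 4 and 3 UMIs in the DG against 3, 4 and 2 in the CA1. Camkv, a kinase-like protein without known activity, had 9, 1 and 1 and 6, 2 and 1 UMIs, and Camkk2, which phosphorylates CaM kinases I and IV, had 6, 1 and 3 and 2, 2 and 5. Camk1d had 18 UMIs in total and Camk4, the nuclear CaM kinase IV, had 13, of which 4 were in the DG of section 1, 0 in the DG of sections 2 and 3, and 3, 1 and 5 in the CA1.

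Genes that remove or release calcium had fewer UMIs than Atp2b1. Atp2b2, the second pump, had 16, 3 and 5 UMIs in the DG against 8, 3 and 3 in the CA1, and Slc8a1, a sodium-calcium exchanger, had 13, 2 and 10 and 5, 2 and 3. The shares of both were higher in the DG in sections 1 and 3 and lower in section 2. Atp2a2, the SERCA2 pump that fills the endoplasmic reticulum, had 6, 2 and 5 UMIs in the DG against 6, 2 and 4 in the CA1, and Slc24a2 7, 1 and 3 and 4, 1 and 2, while Atp2c1, the Golgi pump, had 10 in total. By share, Atp2a2 was lower in the DG in all 3 sections and Slc24a2 in sections 1 and 2. Ryr2, a ryanodine receptor that releases stored calcium, had 34, 2 and 4 UMIs in the DG against 8, 6 and 4 in the CA1, with 34 of its 58 UMIs in 1 library, and Ryr3 and Itpr1 had 16 and 15 in total. Adcy1, the calmodulin-stimulated adenylyl cyclase, had 42, 5 and 6 UMIs in the DG against 16, 5 and 6 in the CA1, and the phosphodiesterase gene Pde1a had 3, 1 and 6 and 3, 1 and 4. Ryr2 and Adcy1 had lower shares in the DG in sections 2 and 3, and Pde1a in sections 1 and 2. Of the 14 EF-hand buffers and sensors, 12 were listed with 54 UMIs in all, and Hpcal4 with 16 UMIs was the only one at 10 or more.

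**Figure D4:**
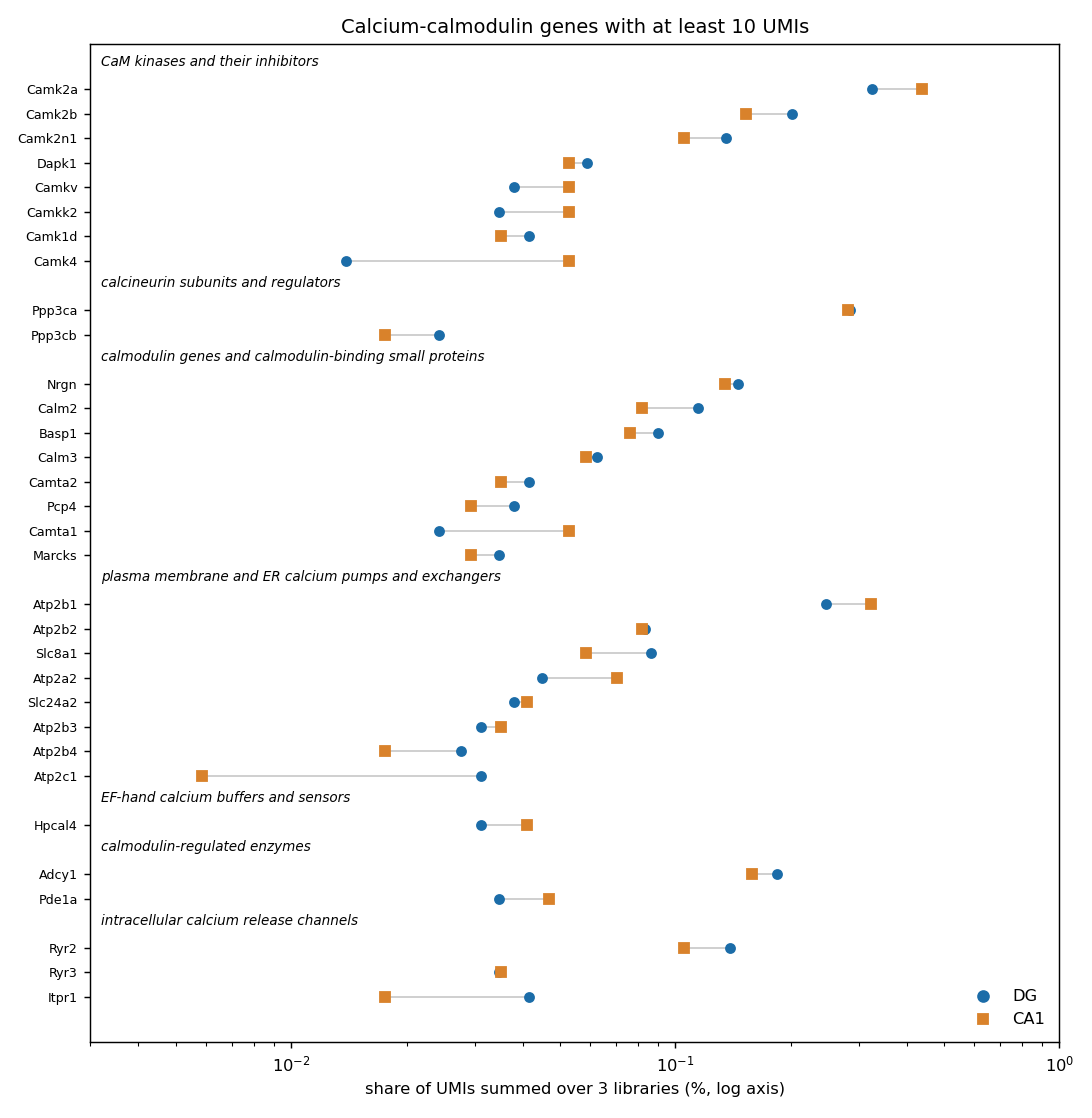
Share of UMIs summed over the 3 libraries of an area, in percent (horizontal axis, log scale), of calcium-calmodulin genes with at least 10 UMIs, grouped by role, with the DG as blue circles and the CA1 as orange squares. Camk2a has the highest share in both areas among the genes drawn, the widest gaps are those of Atp2c1 and Camk4 with 10 and 13 UMIs in all, and no error is drawn.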

How the data were processed

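UMIs of the RNA libraries of 3 sections (a DG and a CA1 library each) were examined; the chromatin accessibility libraries were not analysed here. The authors extracted 6-base UMIs (umi_tools), split reads by full or partial barcode (cutadapt 4.1), mapped read 1 to mm10 (STAR 2.7.9a), assigned it to genes without regard to strand (featureCounts, Subread 2.0.3) and counted UMIs per gene. The deposited counts have 1 added to every gene, which was removed, and a line of totals was left out. Deposited CPM, mean, SD, fold and log10 ratio columns were not used.

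DG was compared with CA1 by edgeR 4.0.16's quasi-likelihood test (limma 3.58.1, R 4.3.3) over the whole table with TMM, filterByExpr and Benjamini-Hochberg adjustment at 0.05, without a section term, since the study averages replicates. The 43 genes that passed the filter held 16.4% to 22.3% of a library's UMIs. Shares and ratios were compared on the log2 scale by two-sided exact permutation tests, and by Fisher's exact and exact Mantel-Haenszel tests for counting error (scipy 1.17.1, numpy 2.4.6, pandas 2.3.3, Python 3.11.15). Intervals are exact (Clopper-Pearson). The edgeR fit was first tested on simulated data with no change or with changes larger than those of the members. That test does not show whether differences of the members' size would be called. Since DG and CA1 were barcoded on 1 piece of tissue, the section number pairs their libraries, whose deviations from the area means correlated at 0.205, 0.133 and 0.0851 over 7507 genes in sections 1, 2 and 3. The deviations were taken on log2 of UMIs plus 1, scaled to the library total, so depth can enter them. Libraries of different sections were not compared, so these correlations do not test the pairing.

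Positions and exon lengths came from RefSeq on GRCm38.p6, the assembly of mm10, with all 5 symbols found. The members and lists were chosen with earlier results of these data known. Named genes were the 5 members, other genes of the lists with at least 10 UMIs, the 2 genes most correlated with each member, and any gene called in an alternative, except for a few that are not reported here. Alternatives were other size factors and filters, DESeq2 1.42.0, section as a block, the counts as deposited, other denominators, correction for UMI collisions, thinning to 2844 UMIs (20 draws), and leaving out each section and library.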

Additional observations from a re-analysis of the deposited data

How the results depend on the processing

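The log2 differences of DG minus CA1 in the shares of Camk2a, Camk2b and Atp2b1 and in the Camk2a to Camk2b ratio kept their direction in 15 of 15 alternatives each. Their ranges were -0.90 to -0.28, 0.23 to 0.62, -0.49 to -0.03 and -1.19 to -0.76, where the values nearest 0 came from the counts as deposited for Camk2a and Atp2b1 and from thinning for Camk2b and the ratio. Leaving out a section or a library gave -0.90 to -0.31 for Camk2a, 0.25 to 0.55 for Camk2b, -0.49 to -0.13 for Atp2b1 and -1.19 to -0.80 for the ratio. Not every alternative could change a direction, since the exact sign-flip test by section reuses the main estimate. For the ratio, leaving out libraries could not reverse areas that do not overlap, and scaling per kilobase is a constant factor. Its count of kept directions is therefore no measure of robustness. The share of Ppp3ca changed sign with the counts as deposited (0.25), with TMM library sizes (0.051) and over left-out replicates (-0.40 to 0.28), and that of Nrgn with the counts as deposited (0.11) and over left-out replicates (-0.63 to 0.44); the cause was not tested. By edgeR, Ppp3ca was at -0.0030 in DESeq2 and between -0.18 and 0.53 over left-out replicates, and Atp2b1 between -0.60 and 0.17. With the section as a replicate block, the paired fit called 0 genes (Camk2a adjusted p = 0.464, Camk2b 0.438), and the exact sign-flip test, which cannot go below 0.25 with 3 sections, gave p = 0.25 for the ratio (-0.98). The count of genes called was 0 in 16 of 18 alternatives, taking the median over the 20 thinned draws, and 1 with at least 5 UMIs in 3 libraries (adjusted p = 0.0470) and with the replicate block and no filter together (adjusted p = 0.0202 by edgeR). That gene was Prkce, a protein kinase C that had 37, 8 and 6 UMIs in the DG against 5, 0 and 1 in the CA1, and no member. Of the thinned draws, 17 of 20 called no gene and 3 called 1 gene each, Grin2b in 2 draws and Rn45s in 1. Single libraries held 2 to 62 UMIs per member, and 3 libraries an area also limit the exact tests.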
